A study of Homo sapiens with 8 samples.

Results

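The genes described here are those whose expression moved in opposite directions in 2 esophageal squamous carcinoma lines after selection for passage through a membrane. Of 14180 genes tested, 12104 had a higher group mean above 5 on the log2 scale in each line. Among these, 6406 were members by the signs of their changes, 3512 lower in the membrane-passing cells of KYSE30 and higher in those of KYSE180, and 2894 the reverse. Signs and levels chose the members, so an opposed direction is not itself a finding. Most small changes of opposite sign lie within the spread of the arrays, and 5082 of the 6406 did not pass the test of the difference between the lines. The account therefore turns on 135 opposed genes whose change passed the test in KYSE30, in KYSE180 and in the difference between them, each at a limma adjusted p under 0.05.

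KYSE30 and KYSE180 are established human lines of esophageal squamous cell carcinoma. Each was taken through 4 successive transwell selections, and the populations were grown for 2 passages before RNA was extracted. The 4 groups hold 2 arrays each: 30U and 180U are the cells that stayed above the membrane, 30D and 180D those that crossed it and that the labels describe as more motile. Each D population has a U partner from the same of 4 independently selected parental populations. No group is an unselected parent, so a change is a difference between the selected fractions only. The spread behind each p-value was estimated over the 4 groups of both lines together and moderated across genes. It covers no variation beyond that between the 2 arrays of a group, and it is not specific to the line tested. All values are log2 expression values on Affymetrix arrays, and all changes are D minus U with the SE of the limma fit from 2 arrays per group.

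Crossing a porous membrane requires cells to polarise, contract their cortex through actin and myosin, and make and release contacts at integrin adhesions. Carcinoma cells can do this with differing sets of cytoskeletal, adhesive and secreted proteins. Whether such differences bear on the opposed changes was not tested. In squamous epithelium, motility is commonly set against differentiation, in which cells leave the basal layer, build desmosomes and deposit a cornified envelope of small proline-rich proteins.

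Arrays of the same group correlated at 0.997 to 0.998 across the tested genes, and arrays of the other fraction in that line at 0.992 to 0.995. Arrays are named by group and replicate, as 180D1. That array differed from the rest in its RNA controls, where the 3′ end of ACTB exceeded the 5′ end by 1.92, against 1.06 to 1.42 on the other arrays. All of the 12 squamous markers measured lay above the background filter of 4.46, KRT5, KRT14 and DSG3 among them. Of 10 fibroblast markers, 4 lay above it (COL1A1, DCN, PDGFRB and THY1), while COL1A2, COL3A1, LUM, PDGFRA, FAP and POSTN lay below it. Of 8 immune markers measured, CD3E, CD3D, ITGAM and CSF1R lay above it on average, with CSF1R highest at 5.03 to 5.76 in the group means. PTPRC, MS4A1, CD14 and LCP2 lay below it, with PTPRC at 2.87 to 3.07. Of 12 glandular, 10 neural and 8 endothelial markers, 10, 6 and 5 lay above the filter, so passing it does not by itself mark a cell type. The summed log2 level of the glandular markers was 14.82 in 30U, above the 14.45 to 14.46 of the squamous ones. In 180U it was 13.45 to 13.51, against 15.92 to 15.97. In bulk RNA, fewer cells of a type and less RNA per cell cannot be told apart.

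A difference between the lines in the response to selection passed the test for 12.2% of all genes tested, in either direction. With opposed signs and levels above 5 it passed for 5.54% (lower in 30D) and 3.79% (higher in 30D). Genes lower in 30D and higher in 180D in all 3 tests numbered 97, which is 0.684% of the tested genes, and those higher in 30D and lower in 180D numbered 38, or 0.268%. Of the genes tested, 16.5% passed in KYSE30 (8.42% higher and 8.12% lower in 30D) and 3.75% in KYSE180 (2.55% higher and 1.21% lower in 180D). These shares are the background for the counts of genes that rose or fell in each gene list below. Genes that passed in both lines numbered 253, which is 10.8% of the calls in KYSE30 and 47.6% of those in KYSE180. Among these 253, opposed signs (151 genes) outnumbered equal signs (102 genes), and 16 of the opposed ones did not meet the level limit. The most frequent combination was lower in 30D and higher in 180D, with 111 genes, followed by higher in both with 66, the reverse opposition with 40 and lower in both with 36.

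**Figure D1:**
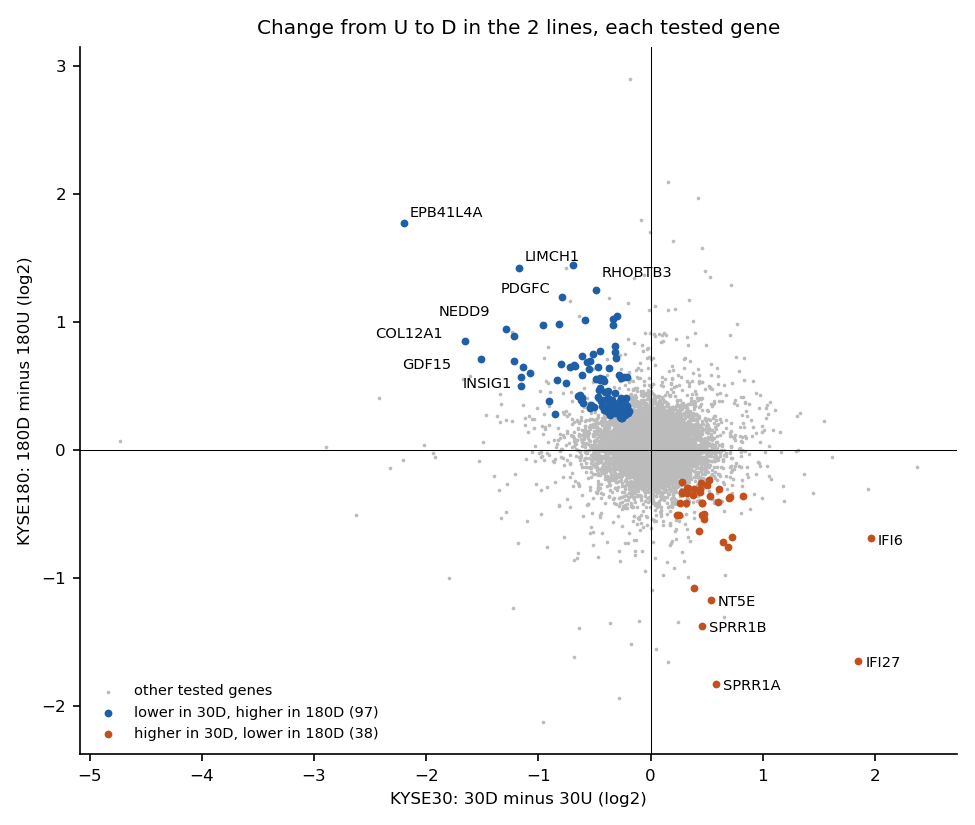
Change from U to D in KYSE30 (horizontal axis, log2) against that in KYSE180 (vertical axis, log2) for each of the 14180 tested genes. Coloured points are the 97 genes lower in 30D and higher in 180D and the 38 genes with the reverse pattern; EPB41L4A at -2.20 and 1.77 and IFI27 at 1.85 and -1.65 lie farthest from the centre on their sides.

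Most opposed changes were small. The smaller of the 2 absolute changes had a median of 0.38 among the 97 genes and 0.36 among the 38, and reached 1, a 2-fold change, in both lines for EPB41L4A, LIMCH1 and IFI27. The U and D arrays did not overlap in either line for any of the 135 genes. A lack of overlap in both lines was found for 30.5% of the tested genes in any direction and for 17% with opposed signs, so it marks these genes out less than the tests do. With the parental population as a block, 38 and 10 genes passed all 3 tests, 35 and 10 of them among the 97 and 38.

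Many calls were lost whichever single array of either line was left out. Such fits have fewer degrees of freedom, so the losses cannot be put down to particular arrays. Of the 97 genes, 40 kept all 3 calls without 30U1, 45 without 30U2, 38 without 30D1 and 42 without 30D2. Leaving out 180U1, 180U2, 180D1 or 180D2 kept 47, 42, 38 and 57. Of the 38 genes, 12, 11, 12 and 10 were kept in the same order for KYSE30 and 16, 15, 13 and 17 for KYSE180. In all 8 of these fits 32 of the 135 genes kept their calls, 26 lower and 6 higher in 30D. The 52 genes named by rule below kept the call of the difference between the lines in each of the 8 fits (adjusted p up to 0.031) and with the block (adjusted p up to 0.0291). What was lost in those fits was the call within a line. With the block 22 of the 52 lost it, 21 of them in KYSE180 and NT5E in KYSE30.

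EPB41L4A had the largest opposed change. It encodes a member of the band 4.1 family, whose FERM domains link membrane proteins to the cytoskeleton. Its level was 8.10 on both 30U arrays and 5.99 and 5.81 on the 30D arrays, but 4.49 and 4.67 on the 180U arrays and 6.27 and 6.44 on the 180D arrays. The highest and the lowest levels were thus those of the 2 U groups, and the D groups lay between them. It fell 4.6-fold in 30D (-2.20 ± 0.09, limma adjusted p = 4.7e-05) and rose 3.42-fold in 180D (1.77 ± 0.09, adjusted p = 0.00016). The 180U values lay near the filter value of 4.46, so the rise was measured from near background. Its other probe set had the same signs with smaller changes, -0.75 and 0.30.

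LIMCH1 and NEDD9 had opposed changes in the same direction. LIMCH1, which activates non-muscle myosin II, read 8.42 and 8.36 in 30U, 7.26 and 7.18 in 30D, 6.15 and 6.28 in 180U, and 7.58 and 7.70 in 180D. It fell by 1.17 (SE 0.07) in 30D and rose by 1.42 ± 0.07 in 180D. NEDD9, a docking protein of focal adhesions, was nearly level in the 2 U groups, at 8.41 and 8.43 in 30U and 8.23 on both 180U arrays. It moved apart to 7.14 and 7.11 in 30D and to 9.23 and 9.12 in 180D (-1.29 ± 0.06, adjusted p = 4.9e-05, and 0.95 ± 0.06, adjusted p = 0.000266). NEDD9 thus differed little between the U sublines and strongly between the D sublines, unlike EPB41L4A.

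RHOBTB3, which encodes a BTB domain protein, changed less in 30D than in 180D. Its levels were 12.56 and 12.53 in 30U, 12.06 on both 30D arrays, 8.04 and 8.19 in 180U, and 9.31 and 9.42 in 180D. It stayed far higher in KYSE30 throughout, and its changes were -0.48 ± 0.07 and 1.25 ± 0.07. Smaller opposed changes were found for the small GTPase RHOB (-0.35 and 0.39) and for PKP2, a desmosomal plaque protein (-0.42 and 0.56). The other probe set of RHOB gave 0.04 and 0.24, with no opposed signs, and that of PKP2 gave -0.23 and 0.11. RHOB passed all 3 tests only without 180D2 among the 8 fits that left out an array (adjusted p up to 0.112) and did not pass in KYSE180 with the block (adjusted p = 0.0879). PKP2 lost a call without 30U1, 30D1, 30D2 or 180U1 (adjusted p up to 0.0604). Of the 55 tested genes of the actin and motility list, 8 rose and 7 fell in 30D, and 6 rose and none fell in 180D. LIMCH1 and RHOB were its opposed genes, and its median changes of 0.07 and 0.04 lay close to the 0.01 and 0.02 of all genes. Of 32 integrin and focal adhesion genes, 7 rose and 3 fell in 30D, and 3 rose and none fell in 180D, NEDD9 being the only opposed gene. Of 45 junction genes, 15 rose and 4 fell in 30D, and 2 rose and 2 fell in 180D. Its opposed genes were EPB41L4A and PKP2 and, in the other direction, GJB2.

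**Figure D2:**
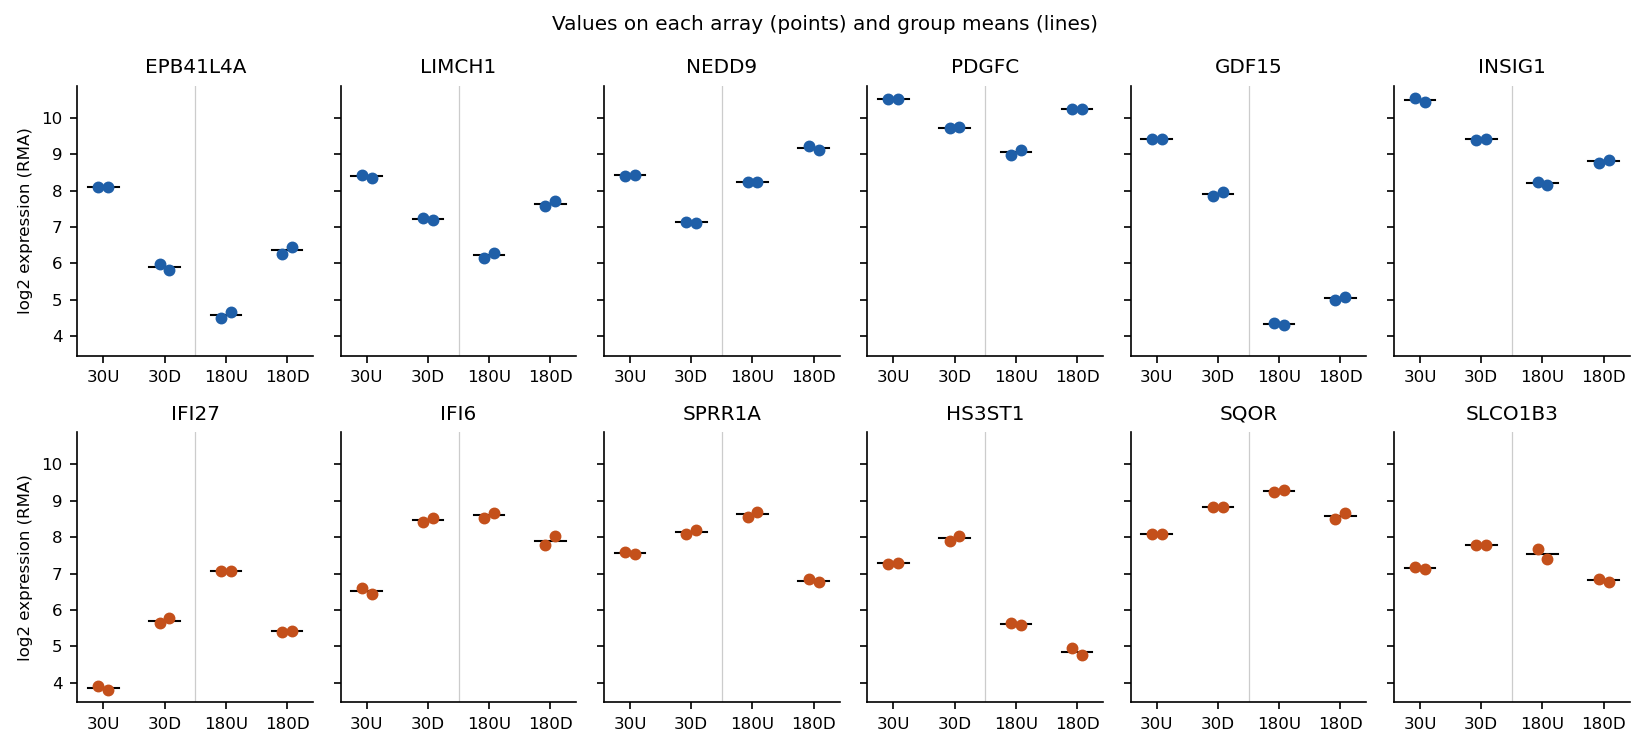
Log2 expression on each array (points) and group means (lines) of 12 opposed genes, 6 lower in 30D and higher in 180D (blue) and 6 with the reverse pattern (orange). U and D points do not overlap within either line in any panel, and EPB41L4A, at 8.10 in 30U and 4.58 in 180U, has D means between those of its U groups.

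PDGFC, COL12A1 and IGFBP7 encode secreted proteins and were lower in 30D and higher in 180D. PDGFC, a platelet-derived growth factor, read 10.51 and 10.53 in 30U, 9.72 and 9.75 in 30D, 8.99 and 9.12 in 180U, and 10.25 and 10.26 in 180D. It was abundant in all groups, fell 1.72-fold in 30D (-0.79 ± 0.06) and rose 2.29-fold in 180D (1.20 ± 0.06). COL12A1, a fibril-associated collagen, fell from 7.22 and 7.19 to 5.58 and 5.51 in KYSE30 and rose from 6.57 and 6.34 to 7.31 and 7.30 in KYSE180. That is a 3.15-fold fall and a 1.8-fold rise. IGFBP7, a secreted protein related to the insulin-like growth factor binding proteins, fell from 8.47 and 8.45 to 7.63 and 7.66 and rose from 6.99 and 6.92 to 7.94 and 7.95. These 3 genes kept their calls whichever single array was left out and with the block.

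Further secreted proteins outside the naming rule, picked after their values were seen, were EFEMP1 (-0.68 and 0.66), the laminin chain LAMB1 (-0.34 and 1.03) and the netrin NTN4 (-0.33 and 0.98), with the cell surface proteoglycan GPC4 (-0.68 and 0.66). LAMB1 stood at 9.91 in 30U against 4.54 in 180U, so its rise in 180D began near the filter value. Several of these genes are also expressed by stromal cells, and the summed level of the 10 fibroblast markers moved in the same directions. On the log2 scale it was 8.23 to 8.26 in 30U, 8.07 to 8.13 in 30D, 8.37 to 8.41 in 180U, and 8.63 to 8.81 in 180D. Without COL1A1 the same sum was 7.44 in 30U, 7.45 to 7.46 in 30D, 7.42 to 7.60 in 180U, and 7.58 to 7.61 in 180D, and 6 of the 10 markers lay below the filter value. COL1A1 itself changed by -0.39 in KYSE30, where it did not pass (adjusted p = 0.0518), and by 0.58 in KYSE180 (adjusted p = 0.035). The part of these markers in the result was not tested.

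In the list of matrix proteases and inhibitors, 12 of 40 genes rose and 6 fell in 30D, and 5 rose and 2 fell in 180D. CTSH, a lysosomal cysteine protease, was lower in 30D and higher in 180D (-0.38 and 0.30), and ADAM12, a membrane metalloprotease, was higher in 30D and lower in 180D (0.82 and -0.36). Neither passed in KYSE180 with the block (adjusted p = 0.0893 and 0.107). CTSH lost a call whichever of the 8 arrays was left out, and ADAM12 when any array other than the 30U arrays was left out (adjusted p up to 0.0925 and 0.141). Of the other 4 ADAM12 probe sets past the filter, 1 had both of its signs, so its fall in 180D rests on the probe set used.

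HCAR3, KCNJ2 and SLC1A3 were also lower in 30D and higher in 180D. HCAR3, a receptor for hydroxy fatty acids, had nearly mirror-image changes. It read 6.90 and 6.64 in 30U, 5.88 and 5.75 in 30D, 6.53 and 6.47 in 180U, and 7.43 and 7.52 in 180D, which gave -0.96 ± 0.09 and 0.97 ± 0.09. KCNJ2, an inward-rectifier potassium channel, fell from 7.58 and 7.48 to 6.35 and 6.28 and rose from 5.72 and 5.68 to 6.62 and 6.56. SLC1A3, a glutamate transporter, fell from 8.65 and 8.66 to 7.48 and 7.39 and rose from 6.77 and 6.66 to 7.41 on both 180D arrays. The D groups of SLC1A3 thus came to nearly the same level, whereas those of HCAR3 had moved past each other.

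SCNN1A, the alpha subunit of the epithelial sodium channel, fell 1.5-fold and rose 2.02-fold. Its 2 other probe sets barely moved, between -0.11 and 0.05 in either line. GLRB, the beta subunit of the glycine receptor, fell 1.62-fold and rose 2.73-fold, and its 180U mean of 4.06 lay below the filter value, so the rise is measured from near background. Its other probe set gave -0.51 and 1.26. In RefSeq gene order GLRB is the next protein-coding gene after PDGFC on chromosome 4, and both moved the same way. HCAR3, KCNJ2, SLC1A3, SCNN1A and GLRB kept their calls whichever single array was left out.

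Among transcription factors, the homeobox genes MSX2 and MEOX1 were lower in 30D and higher in 180D. MSX2 read 9.01 and 8.93 in 30U, 8.20 and 8.15 in 30D, 6.05 and 5.94 in 180U, and 6.70 and 6.63 in 180D (-0.79 ± 0.06 and 0.67 ± 0.06). MEOX1 changed by -1.14 ± 0.11 and 0.65 ± 0.11, but lost its call in KYSE180 without 180U2, 180D1 or 180D2 (adjusted p up to 0.0924). MEIS1 and MEIS2, TALE homeobox factors picked after their values were seen, changed by -0.47 and 0.65 and by -0.42 and 0.31. With the block MEIS1 passed all 3 tests, while MEIS2 did not pass in KYSE180 (adjusted p = 0.0916). ATF3, a stress-induced bZIP factor, fell from 8.62 and 8.61 to 7.85 and 7.70 and rose from 6.32 and 6.30 to 6.82 and 6.89. Its other probe set gave -0.73 and 0.10, a far smaller rise. Among 24 genes of the AP-1 and immediate early group, of which ATF3 and IER3 were opposed, 6 rose and 6 fell in 30D, and 2 rose and 2 fell in 180D.

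Components of TGF-beta and Wnt signalling were represented by a few genes each. Of 43 tested genes of the TGF-beta list, 7 rose and 11 fell in 30D, and 8 rose and 2 fell in 180D. The difference between the lines was positive for 16 and negative for 5, against 6.94% and 5.21% of all genes. NEDD9 and SMAD6, an inhibitory SMAD induced by the pathway, were the opposed genes of the list. SMAD6 changed by -0.72 ± 0.11 and 0.65 ± 0.11 and kept all its calls only without 30U2 or 180U1 (adjusted p up to 0.134 otherwise). With the block it did not pass in KYSE180 (adjusted p = 0.0689), and with the mean of its probe sets the difference itself did not pass (adjusted p = 0.0514). CCN2, a matricellular target of the pathway, fell in 30D (-0.95), while its change of 0.72 in 180D did not pass (adjusted p = 0.0746).

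In the list of 41 Wnt and Notch genes, 8 rose and 4 fell in 30D, and 3 rose and 2 fell in 180D. The Wnt receptor FZD1 read 7.22 and 6.97 in 30U, 5.84 and 6.04 in 30D, 10.03 and 10.05 in 180U, and 10.60 and 10.63 in 180D. The Wnt co-regulator LGR4, a receptor for R-spondins, changed by -0.76 and 0.53. The other probe set of FZD1 gave -0.41 and 0.52, but that of LGR4 gave 0.07 and 0.09, with no opposed signs. By the probe sets used, FZD1 and LGR4 were lower in 30D and higher in 180D. Neither passed in KYSE180 with the block (adjusted p = 0.105 and 0.096). For FZD1 the call in KYSE180 was lost whichever of its 4 arrays was omitted (adjusted p up to 0.118), and LGR4 without 180U2 or 180D1 (adjusted p up to 0.12).

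The cholesterol synthesis list held 5 opposed genes, more than any other list. Cells control this pathway through SREBP factors, which INSIG proteins retain in the endoplasmic reticulum when sterols are plentiful. Of 26 tested genes of the list, 15 fell and 2 rose in 30D, and 5 rose and 1 fell in 180D. By sign, 20 of the 26 were lower in 30D and higher in 180D, against 3512 of 14180 tested genes. The opposed genes, ACAT2, HMGCS1, IDI1, INSIG1 and STARD4, were 5 of 26, and the background in that direction was 0.684%. Median changes of the list were -0.24 and 0.16, against 0.01 and 0.02 over all genes.

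INSIG1, itself a target of SREBP, had the largest opposed change of the list. It read 10.54 and 10.42 in 30U, 9.39 and 9.43 in 30D, 8.25 and 8.17 in 180U, and 8.77 and 8.85 in 180D. That is a 2.1-fold fall and a 1.52-fold rise (-1.07 ± 0.06, adjusted p = 0.000139, and 0.60 ± 0.06, adjusted p = 0.00412). INSIG1 was the only opposed gene of the list that kept its calls whichever single array was left out and with the block, and its 2 other probe sets had the same signs.

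HMGCS1, which makes HMG-CoA, read 9.16 and 9.10 in 30U, 8.50 and 8.53 in 30D, 8.90 on both 180U arrays, and 9.33 and 9.25 in 180D. The U groups lay close together and the D groups apart, as for NEDD9. The isomerase IDI1 changed by -0.53 and 0.35, the sterol carrier STARD4 by -0.54 and 0.33 and the acetyl-CoA acetyltransferase ACAT2 by -0.25 and 0.28. The other IDI1 probe sets gave -0.15 to -0.47 in 30D and -0.10 to 0.34 in 180D. With the block HMGCS1, IDI1 and STARD4 did not pass in KYSE180 (adjusted p = 0.0601, 0.0655 and 0.0707). HMGCS1 lost its call without 180U1, 180U2 or 180D1 (adjusted p up to 0.0625). IDI1 lost a call when any array other than 180D2 was left out, and STARD4 whichever of the 8 was left out (adjusted p up to 0.087 and 0.147). ACAT2 also lost a call whichever of the 8 was left out, and with the block it did not pass in KYSE180 (adjusted p = 0.107).

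Other list members passed in 30D and not in 180D. SREBF1, which encodes an SREBP factor, changed by -0.61 (adjusted p = 0.00262) and by 0.31 (adjusted p = 0.0722). SQLE and TMEM97 changed by -0.26 and -0.29 in 30D and by 0.26 and 0.23 in 180D, where neither passed (adjusted p = 0.081 and 0.0856). The members against the pattern were INSIG2, another retention factor, at 0.30 in 30D, PMVK at 0.25 in 30D and MYLIP, a ligase that removes the LDL receptor, at -0.36 in 180D. In the fatty acid synthesis list, the desaturase SCD was the only opposed gene of 18 (-0.27 and 0.25). It did not pass in KYSE180 with the block (adjusted p = 0.118) and lost a call whichever of the 8 arrays was left out (adjusted p up to 0.118). The other SCD probe sets gave -0.33 to -0.40 in 30D and -0.04 to 0.13 in 180D, so its rise rests largely on the probe set used. Of the 18, 1 rose and 7 fell in 30D, and 1 rose and 2 fell in 180D.

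**Figure D3:**
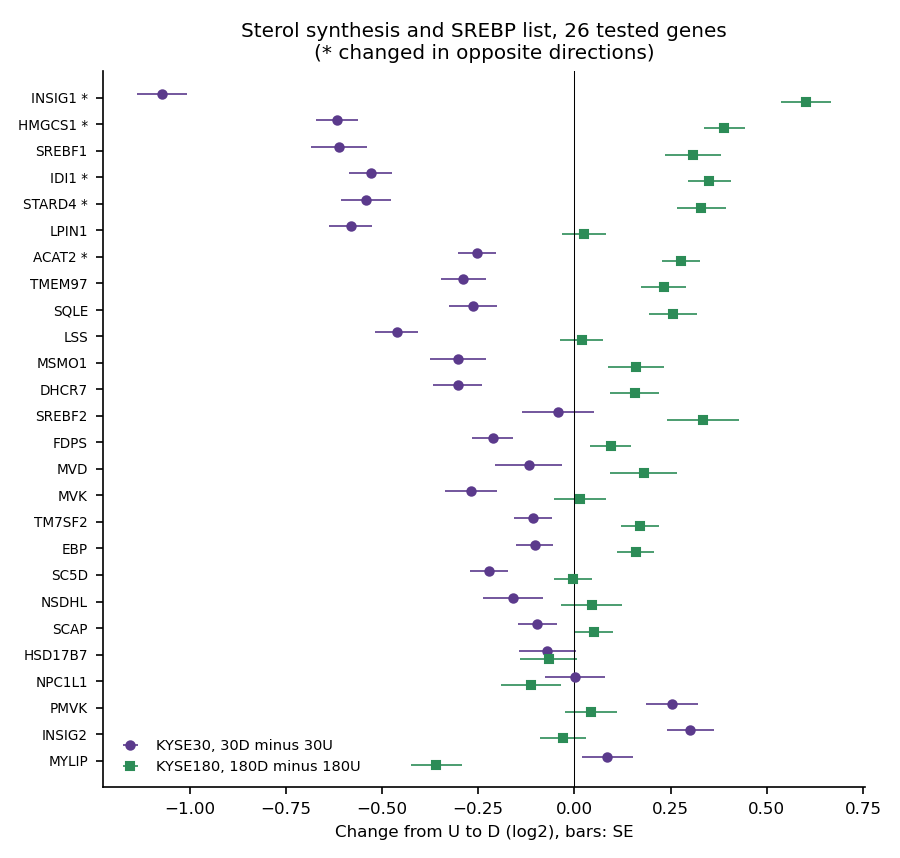
Change from U to D with its SE (horizontal axis, log2) for the 26 tested genes of the sterol list, KYSE30 as circles and KYSE180 as squares, ordered by the difference between the lines. Circles lie mostly to the left of 0 and squares to the right, with INSIG1 at -1.07 and 0.60 farthest apart and MYLIP, INSIG2 and PMVK at the other end.

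Promoters of 4 of the 5 opposed sterol genes were in the RefSeq-derived table of GRCh38.p14, which holds 250 bases before and 50 after each start. CCAAT, the core of an NF-Y element, which acts beside SREBP in such promoters, was sought on both strands. It was found in 3 of the 4 and in 75.0% of the promoters of the tested list, against 35.7% of all promoters. The sterol regulatory element, sought as TCACNCCAC on both strands, was in none of the 4 and in 1.15% of all promoters. The 250 bases before the start of the 3 genes with CCAAT are shown to place it, while IDI1, which moved the same way, holds none in that stretch. They are given 5′ to 3′ on the gene's strand, with CCAAT or its complement in capitals. INSIG1 is from chr7:155297628-155297877 on the plus strand, HMGCS1 from chr5:43313413-43313662 on the minus strand and STARD4 from chr5:111512536-111512785 on the minus strand.
INSIG1: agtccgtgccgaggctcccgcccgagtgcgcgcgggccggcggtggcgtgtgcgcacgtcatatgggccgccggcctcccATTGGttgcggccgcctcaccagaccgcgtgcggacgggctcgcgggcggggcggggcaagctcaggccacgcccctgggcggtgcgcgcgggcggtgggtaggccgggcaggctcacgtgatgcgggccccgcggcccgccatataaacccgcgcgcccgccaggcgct
HMGCS1: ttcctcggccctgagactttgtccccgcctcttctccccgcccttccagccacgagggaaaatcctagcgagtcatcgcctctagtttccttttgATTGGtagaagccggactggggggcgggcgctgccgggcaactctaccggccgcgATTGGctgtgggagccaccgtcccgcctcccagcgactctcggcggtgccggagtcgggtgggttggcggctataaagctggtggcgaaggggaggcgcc
STARD4: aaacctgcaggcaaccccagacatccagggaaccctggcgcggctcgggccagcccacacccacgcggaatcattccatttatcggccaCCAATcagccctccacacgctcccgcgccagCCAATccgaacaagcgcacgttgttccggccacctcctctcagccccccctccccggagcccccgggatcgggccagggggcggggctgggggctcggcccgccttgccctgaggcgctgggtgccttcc
HMGCS1 and STARD4 hold 2 copies each and INSIG1 1 copy.

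The p53 protein halts growth and induces stress proteins. Of 25 of its targets tested, 2 rose and 11 fell in 30D, and 2 rose and none fell in 180D, the 2 being GDF15 and CCNG1. The shares of all genes that rose and fell were 8.42% and 8.12% in 30D, and 2.55% and 1.21% in 180D. GDF15, a stress-induced cytokine, was at 9.42 on both 30U arrays, 7.85 and 7.95 in 30D, 4.36 and 4.30 in 180U, with a mean of 5.04 in 180D. Its 180U values lay below the filter value and its 180D mean just met the level limit. Cyclin G1, from CCNG1, is a p53 target that recruits a phosphatase subunit. It read 11.06 and 11.08 in 30U, 10.43 and 10.45 in 30D, 9.98 and 9.95 in 180U, and 10.39 on both 180D arrays. After a fall of 0.63 and a rise of 0.43 its D groups were at nearly the same level. MDM2, TP53INP1 and SESN1 fell in 30D (-0.30, -0.96 and -0.72) and changed by 0.13, 0.12 and 0.06 in 180D without passing (adjusted p = 0.247, 0.296 and 0.744).

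The cell cycle list held no opposed gene. Of its 56 tested genes, 2 rose and 21 fell in 30D, and 3 rose and none fell in 180D, with medians of -0.15 and 0.04. Over all genes, 8.42% rose and 8.12% fell in 30D, and 2.55% rose and 1.21% fell in 180D. The difference between the lines was positive for 15 of the list and negative for 1, against 6.94% and 5.21% of all genes.

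In the reverse direction, a pair of interferon-stimulated genes had the largest differences between the lines. Interferons induce genes that carry an interferon-stimulated response element (ISRE) in their promoters. IFI27, a mitochondrial protein strongly induced by interferon, read 3.90 and 3.79 in 30U, 5.63 and 5.77 in 30D, 7.06 on both 180U arrays, and 5.39 and 5.42 in 180D. The U groups lay far apart, with 30U below the filter value, and the D groups close together. It rose by 1.85 ± 0.07 in 30D (adjusted p = 2.53e-05) and fell by 1.65 in 180D (SE 0.07, adjusted p = 6.77e-05). IFI6, another interferon-induced mitochondrial protein, read 6.59 and 6.44 in 30U, 8.42 and 8.53 in 30D, 8.54 and 8.65 in 180U, and 7.77 and 8.04 in 180D. Its fall of 0.69 in 180D missed the threshold under the block (adjusted p = 0.0737) and on omitting 180U1, 180U2 or 180D1 (adjusted p up to 0.0974).

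IFIT2, an antiviral protein that binds RNA, took the other direction within the same list. It fell from 9.73 and 9.64 to 9.25 and 9.15 in KYSE30 and rose from 6.13 and 6.06 to 6.68 and 6.63 in KYSE180 (-0.49 ± 0.06 and 0.55 ± 0.06). Its other probe set gave -0.52 and 0.28. IFIT3 rose in 180D (0.91) and changed by -0.05 in 30D (adjusted p = 0.694). Of the 48 tested genes of the interferon list, 36 rose and 1 fell in 30D, and 9 rose and 2 fell in 180D. The difference between the lines was negative for 33 and positive for 2, IFIT2 and IFIT3, against 5.21% and 6.94% of all genes. Medians were 0.64 and 0.14, and 45 of the 48 genes were not opposed by the 3 tests.

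Higher in 30D and lower in 180D by all 3 tests were 2 of the 48, against 0.268% of all genes, and the reverse was found for 1 of the 48, against 0.684%. By sign, 13 of the 48 were higher in 30D and lower in 180D, against 2894 of 14180. GBP1 (1.94 in 30D), IFI44 (1.37) and ISG20 (1.03) rose in KYSE30, and their changes of -0.31, -0.19 and -0.12 in 180D did not pass (adjusted p = 0.17, 0.326 and 0.514). The antigen presentation list had no opposed gene; of 18, 11 rose and none fell in 30D, and in 180D limma called none (4 at an unadjusted p under 0.05).

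**Figure D4:**
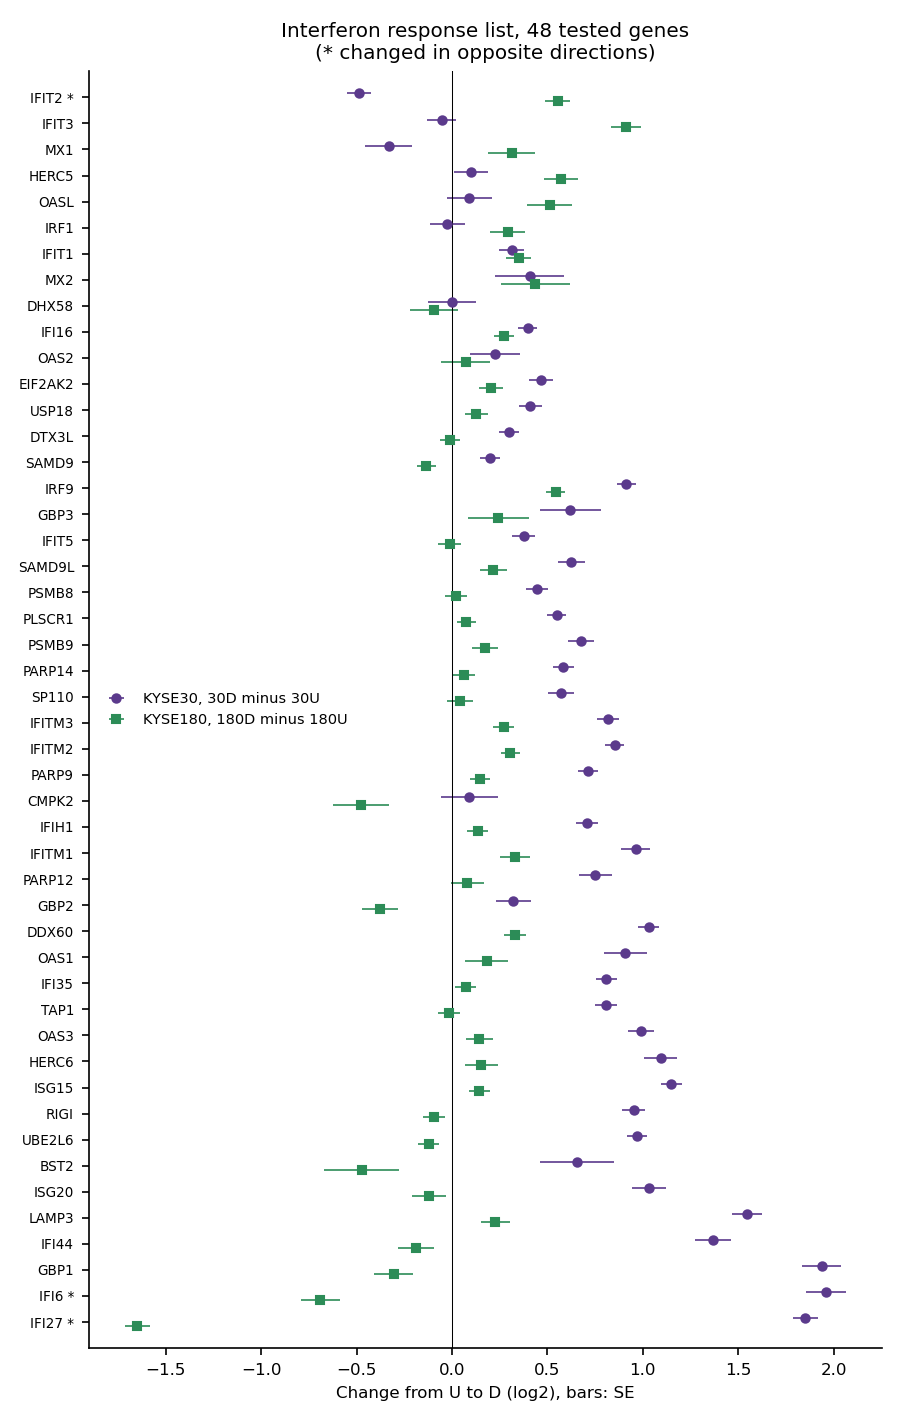
Change from U to D with its SE (horizontal axis, log2) for the 48 tested interferon-stimulated genes, KYSE30 as circles and KYSE180 as squares, ordered by the difference between the lines. IFI27 (1.85 and -1.65) and IFI6 (1.96 and -0.69) at the bottom and IFIT2 (-0.49 and 0.55) at the top, marked with asterisks, are the opposed genes.

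The promoters of IFI27 and IFI6 were in the RefSeq-derived table of GRCh38.p14 and are shown because both genes moved the same way in both lines. The ISRE was sought on both strands as 2 copies of GAAA with 2 bases between them, and stands in capitals in the 250 bases before the start. It was in both of these promoters, in 64.1% of the 39 promoters of the tested list and in 3.65% of all promoters. IFI27 is from chr14:94110486-94110735 on the plus strand and IFI6 from chr1:27672193-27672442 on the minus strand.
IFI27: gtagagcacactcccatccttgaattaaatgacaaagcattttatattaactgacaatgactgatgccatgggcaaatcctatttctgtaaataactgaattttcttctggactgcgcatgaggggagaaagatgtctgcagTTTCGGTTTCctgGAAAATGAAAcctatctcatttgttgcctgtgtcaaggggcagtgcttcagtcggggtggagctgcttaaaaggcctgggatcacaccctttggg
IFI6: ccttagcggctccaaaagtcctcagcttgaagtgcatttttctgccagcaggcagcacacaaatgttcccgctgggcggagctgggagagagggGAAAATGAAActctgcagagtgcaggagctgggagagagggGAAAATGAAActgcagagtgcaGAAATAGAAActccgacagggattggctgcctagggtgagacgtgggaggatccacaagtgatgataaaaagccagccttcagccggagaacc
IFI27 holds 2 matches, 1 on each strand, and IFI6 holds 3 on the gene's strand.

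Some genes of squamous differentiation fell in 180D, and a pair of these rose in 30D. SPRR1A and SPRR1B encode small proline-rich proteins that are cross-linked into the cornified envelope, and they lie near each other on chromosome 1 with 1 gene between them. SPRR1A read 7.59 and 7.54 in 30U, 8.10 and 8.20 in 30D, 8.57 and 8.69 in 180U, and 6.84 and 6.77 in 180D. SPRR1B read 6.56 on both 30U arrays, 7.01 and 7.03 in 30D, 9.07 and 8.90 in 180U, and 7.64 and 7.59 in 180D. The fall in 180D (3.55-fold and 2.59-fold) was larger than the rise in 30D (1.5-fold and 1.38-fold) for each. Transcripts of near-identical small proline-rich genes can cross-hybridise, and the other SPRR1A probe set gave 0.17 and -1.13.

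Of the 46 tested genes of the squamous differentiation list, 7 rose and 4 fell in 30D, and 3 rose and 12 fell in 180D. Opposed were 2 of 46, against a background of 0.268%, and the list's medians were 0.12 and -0.14. IVL and KRT16, an envelope protein and a keratin of activated epidermis, fell in 180D (-0.58 and -0.99) and changed by 0.31 and 0.33 in 30D without passing (adjusted p = 0.113 and 0.0609). KRT13, a suprabasal keratin, fell in 30D (-1.04) and changed by 0.17 in 180D (adjusted p = 0.163), against the direction of SPRR1A. GJB2, the connexin 26 gene, rose from 7.68 and 7.59 to 7.99 and 8.13 and fell from 8.65 and 8.46 to 7.91 and 7.93. It lost a call without 30U1, 30U2, 30D2 or 180D1 (adjusted p up to 0.0893).

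HS3ST1, SQOR and SLCO1B3 were also higher in 30D and lower in 180D. HS3ST1, a heparan sulfate sulfotransferase, read 7.26 and 7.29 in 30U, 7.90 and 8.04 in 30D, 5.64 and 5.57 in 180U, and 4.95 and 4.75 in 180D (0.69 ± 0.08 and -0.76 ± 0.08). Its other probe sets gave 0.07 to 0.13 in 30D and -0.33 to 0.09 in 180D. SQOR, a mitochondrial sulfide oxidase, read 8.10 and 8.09 in 30U, 8.82 on both 30D arrays, 9.23 and 9.29 in 180U, and 8.51 and 8.65 in 180D. SLCO1B3, an organic anion transporter, rose from 7.17 and 7.12 to 7.79 on both 30D arrays and fell from 7.67 and 7.40 to 6.85 and 6.78. These 3 genes had opposed changes of like size, 1.56-fold to 1.69-fold, and kept their calls whichever single array was left out and with the block.

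HAS3, which makes hyaluronan, read 9.11 on both 30U arrays, 9.54 and 9.63 in 30D, 9.67 and 9.83 in 180U, and 9.32 and 9.10 in 180D. It kept all its calls only without 180D1 (adjusted p up to 0.108 otherwise), and the mean of its probe sets did not pass in the difference (adjusted p = 0.0847), since its other probe set had both signs turned. NT5E, the ecto-nucleotidase CD73, rose from 10.58 and 10.59 to 11.09 and 11.15 and fell from 5.85 and 6.01 to 4.54 and 4.97. It lost its call in KYSE30 whichever KYSE30 array was left out (adjusted p up to 0.14) and with the block (adjusted p = 0.0748). The other NT5E probe sets gave 0.08 to 0.31 in 30D and -0.27 to 0.11 in 180D. The bicarbonate transporter SLC4A7 changed by 0.48 and -0.50 and the histone demethylase KDM7A by 0.46 and -0.51. Neither SLC4A7 nor KDM7A passed in KYSE180 with the block (adjusted p = 0.0552 and 0.0672). SLC4A7 lost a call without 30U2, 180U1, 180D1 or 180D2, and KDM7A when any array other than 30U1 and 180U2 was left out (adjusted p up to 0.0848 and 0.12).

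The EGFR and ERK list holds ligands, receptors and feedback genes of that pathway. By sign, 10 of its 26 tested genes were higher in 30D and lower in 180D, against 2894 of 14180 tested genes. Of 26 tested, 9 rose and none fell in 30D, and none rose and 4 fell in 180D, with medians of 0.16 and 0.01. The opposed genes were the ligand TGFA (0.44 and -0.33) and the ERK-responsive gene IER3 (0.52 and -0.23), 2 of 26 against 0.268%. The other TGFA probe sets gave 0.24 to 0.86 in 30D and -0.09 to 0.12 in 180D. The ligand HBEGF rose in 30D (0.82) and changed by -0.24 in 180D (adjusted p = 0.338), and the ERK-driven factor ETV5 fell in 180D (-0.74) and changed by 0.18 in 30D (adjusted p = 0.261). TGFA and IER3 did not pass in KYSE180 with the block (adjusted p = 0.117 and 0.132), and each lost a call whichever of the 8 arrays was left out (adjusted p up to 0.143 and 0.132).

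The remaining named genes of this direction changed by up to 0.71 in 30D. DNAJC6, the auxilin gene, fell 2.12-fold in 180D and rose 1.31-fold in 30D, and lost its call in KYSE30 without 30U1, 30U2 or 30D2 (adjusted p up to 0.0922). NDRG1, a hypoxia-responsive gene, changed by 0.69 and -0.37, and was the only opposed gene of 36 in the hypoxia and glycolysis list, of which 7 rose and 2 fell in 30D and 1 rose and 2 fell in 180D. LYPD3, a surface protein of squamous cells, changed by 0.60 and -0.41, the NKG2D ligand gene ULBP2 by 0.53 and -0.36, and the G protein subunit gene GNB4 by 0.71 and -0.37. The elongation cofactor gene EAF2 changed by 0.46 and -0.42, and AFAP1L1, whose product binds actin filaments, by 0.61 and -0.30. The other probe set of AFAP1L1 gave 0.14 and 0.23, so its fall in 180D rests on the probe set used. These 6 genes, NDRG1 included, did not pass in KYSE180 with the block (adjusted p = 0.0613 for NDRG1 to 0.117 for GNB4). AFAP1L1 lost a call whichever of the 8 arrays was left out, EAF2, GNB4 and ULBP2 when any array other than 180U1 was left out, LYPD3 when any KYSE30 or 180U array was left out, and NDRG1 without 180U1 or 180D1 (adjusted p up to 0.16).

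TMT1A, a thiol methyltransferase gene, belongs to the other direction, with levels of 9.94 and 9.90 in 30U, 8.70 and 8.83 in 30D, 9.25 and 9.33 in 180U, and 9.81 and 9.77 in 180D. It lost its call in KYSE180 without 180D1 (adjusted p = 0.056). Its 2 other probe sets changed by -0.19 to 0.15 in either line.

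Of the 23 gene lists, 7 held no opposed gene. Besides the cell cycle and antigen presentation lists, these were NRF2 targets (3 of 42 rose and 14 fell in 30D, and limma called none in 180D, with 3 at an unadjusted p under 0.05), basal squamous genes (3 of 17 rose and 5 fell in 30D, none in 180D by limma, with 7 at an unadjusted p under 0.05) and ATF4 and unfolded protein response genes (8 of 43 rose and 7 fell in 30D, 2 rose in 180D). The inflammatory list (6 of 30 rose and 3 fell in 30D, 2 rose in 180D) and the metallothionein list were the others. Metallothioneins, which bind zinc, rose in both lines, with 8 of 12 higher and 1 lower in 30D and 7 of 12 higher in 180D. Of 24 YAP and TEAD targets, 3 rose and 3 fell in 30D, and 6 rose and 1 fell in 180D. Of 22 mesenchymal genes, 2 rose and 1 fell in 30D, and 4 rose and 1 fell in 180D. NT5E was the opposed gene of both of these lists. Beside all these counts, 8.42% of all genes rose and 8.12% fell in 30D, and 2.55% rose and 1.21% fell in 180D.

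The 97 genes lower in 30D and higher in 180D tended to be higher in KYSE30 over its U and D arrays together, a comparison of the lines that the rule did not use. Of them 62 (63.9%) had the higher mean in KYSE30, against 45.3% of all genes with levels above 5, with a median difference of 0.69 against -0.04. By arithmetic, such genes approach each other when they fall in KYSE30 and rise in KYSE180. The difference between the lines was smaller in the D than in the U sublines for 62 of the 97, and its median was 1.37 in U and 0.81 in D. Among the 38 reverse genes 20 (52.6%) were higher in KYSE30, and the difference was smaller in D for 18, with medians of 1.02 and 0.94. EPB41L4A, SLC1A3, CCNG1 and IFI27 are examples of approach, and NEDD9, FZD1, HMGCS1 and NT5E of moving apart.

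**Figure D5:**
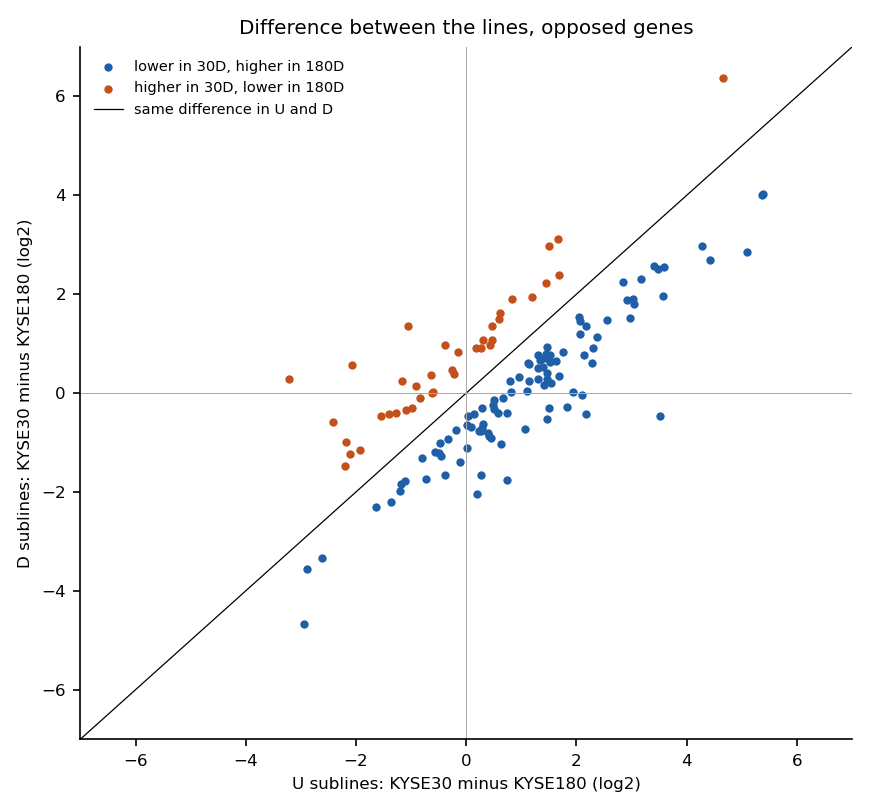
Difference between the lines, KYSE30 minus KYSE180 (log2), in the U sublines (horizontal axis) and in the D sublines (vertical axis) for the 135 opposed genes, with a line of equal differences. The median absolute difference of the 97 genes lower in 30D (blue) is 1.37 in U and 0.81 in D, and that of the 38 reverse genes (orange) is 1.02 and 0.94.

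Other probe sets of the same genes, which read the same RNA with other oligonucleotides, gave a further measure. Of 99 other probe sets for 62 of the 97 genes, 67 (67.7%) had the sign of the probe set used in each line. So did 20 of 32 (62.5%) for 18 of the 38 genes. Over all tested genes the share was 40.2%. Most of those genes passed in neither line, and the opposed genes were chosen on these same arrays. The comparison of shares therefore cannot support the opposed calls. Both signs were turned for 9 and 2 of these probe sets. Examples of close repeats were RHOBTB3, whose 4 other probe sets gave -0.38 to -0.74 in 30D and 0.45 to 1.50 in 180D, and LIMCH1, whose 2 others gave -0.87 and -1.04 in 30D and 1.11 and 1.34 in 180D.

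By position, chromosome 5 had the largest share of opposed genes among chromosomes with over 100 tested genes, 13 of 619 (2.1%), against 0.952% of all tested genes, followed by chromosomes 4 (1.86%) and 6 (1.79%). Pairs of opposed genes with at most 5 genes between them numbered 7, in the RefSeq order of protein-coding genes and the opposed genes. How many such pairs other sets of 135 genes would give was not tested. Those moving the same way were SPRR1A with SPRR1B, PDGFC with GLRB, STARD4 with EPB41L4A, RNF144B with MBOAT1 and COL12A1 with TMEM30A. PSPC1 with GJB2 and RHOBTB3 with ELL2 moved in opposite directions to each other. Of the 135 genes 126 code for proteins and 9 are long noncoding RNAs.

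At the level limit of 5, the members just inside it were SERPINF1, whose lower-expressing line reached 5.02, and GDF15 at 5.04. Just outside were IKZF2 (4.83), TOX (4.76) and TSPAN2 (4.73), which passed the 3 tests with changes of -0.72 and 1.17, -0.64 and 1.04, and -1.24 and 0.92.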

How the data were processed

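The file used holds log2 expression values of 54675 probe sets on 8 arrays, made by the authors with RMA (version not given), per the submitters' processing notes. RMA makes arrays alike in distribution and compresses low signals, so folds of dim genes are understated.

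Of the probe sets, 41091 had 1 gene symbol in the platform annotation, 1801 several and 11721 none; 62 control sets were dropped. RefSeq (GRCh38.p14) supplied current symbols by Entrez ID for 41037. Probe sets with a mean under the 40th percentile (4.46) were left out, and the probe set with the highest mean stood for each gene, leaving 14180 of 19775 genes.

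limma 3.58.1 in R 4.3.3 (lmFit, eBayes, 4 group means, two-sided) tested each change and their difference, with Benjamini-Hochberg adjustment over all genes. The groups share 1 estimate of the spread, and the number of arrays limits the precision. The fit was tested on simulated data.

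The labels give the pairing of U and D by parental population, which in KYSE180 joins unequal replicate numbers; paired arrays' deviations from the group means correlated at -0.02 in KYSE30 and 0.02 in KYSE180. The rule named, per direction, 12 genes by the smaller change, 8 by the difference and up to 4 per list. Members, the 23 gene lists and 6 marker lists were chosen with earlier results of these data known. Alternatives were other filters, probe set choices, normalizations, priors, thresholds, level limits, the block and each array left out.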

Additional observations from a re-analysis of the deposited data

Results flagged for a closer look

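By limma's direct test of the difference between the lines, the response to selection was unequal for 1723 genes and for each of the 52 named genes. The difference of changes, KYSE180 minus KYSE30 on the log2 scale, is given here for each.

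Above 2 it was positive for EPB41L4A (3.98), LIMCH1 (2.60), COL12A1 (2.51), NEDD9 (2.24), GDF15 (2.23), GLRB (2.14) and KCNJ2 (2.11). Between 1.5 and 2 it was positive for PDGFC (1.98), HCAR3 (1.93), SLC1A3 (1.91), IGFBP7 (1.81), MEOX1 (1.79), RHOBTB3 (1.74), FZD1 (1.73), INSIG1 (1.67), TMT1A (1.66) and SCNN1A (1.60). Between 1 and 1.5 lay MSX2 (1.46), ATF3 (1.39), SMAD6 (1.37), LGR4 (1.28), CCNG1 (1.06), IFIT2 (1.04) and HMGCS1 (1.01). Below 1 lay PKP2 (0.98), IDI1 (0.88), STARD4 (0.87), RHOB (0.74), CTSH (0.68) and SCD (0.52).

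It was negative, with a size above 1.5, for IFI27 (-3.50), IFI6 (-2.65), SPRR1A (-2.41), SPRR1B (-1.83) and NT5E (-1.71). With a size between 1 and 1.5 it was negative for DNAJC6 (-1.47), HS3ST1 (-1.45), SQOR (-1.41), SLCO1B3 (-1.36), ADAM12 (-1.19), GNB4 (-1.08), NDRG1 (-1.07), GJB2 (-1.06), LYPD3 (-1.01) and HAS3 (-1.01). Smaller negative differences were those of SLC4A7 (-0.98), KDM7A (-0.96), AFAP1L1 (-0.91), ULBP2 (-0.89), EAF2 (-0.88), TGFA (-0.77) and IER3 (-0.75).

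No cause was tested for any of these differences.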

How the results depend on the processing

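Every named gene kept the direction of its change in each line and of the difference under all alternatives in which it was tested, and 49 of the 52 kept the call of the difference; with the mean of a gene's probe sets it was lost for AFAP1L1 (-0.41), HAS3 (-0.40) and SMAD6 (0.43). Counts moved more than directions. In the order of genes that differ between the lines, genes changed in KYSE180, opposed genes lower in 30D and opposed genes higher in 30D (1723, 532, 97 and 38 in the results above), they were 1142, 311, 50 and 14 with no filter on dim probe sets, 2700, 1069, 181 and 93 with an intensity trend in eBayes, 2729, 1120, 194 and 98 when that fit was also robust, 558, 172, 29 and 7 at an adjusted p of 0.01, and 1011, 230, 38 and 10 with the replicate block, that is the pairing by parental population. At 0.01, 915 genes changed in KYSE30. Fitting each line alone gave 195 genes in KYSE180 and 42 and 13 opposed genes. A filter at the 60th percentile gave 62 opposed genes higher in 30D. Centring each array gave 82 and 55 opposed genes, and repeating the quantile normalization 90 and 52.

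Leaving out each array in turn gave 727 to 1702 genes that differ between the lines, 834 to 2553 changed in KYSE30, 209 to 502 in KYSE180, 38 to 79 opposed genes lower in 30D and 10 to 28 higher in 30D. Fewer arrays leave fewer degrees of freedom, and the cause of the other shifts was not tested. Beside the counts given with the results, the array with divergent RNA controls, 180D replicate 1, left 41 and 18 opposed genes when it was left out. The block changed no call of the difference among the named genes.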
